A study of Mus musculus with 12 samples.

Results

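Toll-like receptors 1 to 4 and 6 to 9, the LPS co-receptor CD14 and the adaptor MyD88 were followed on 12 Illumina bead arrays of mouse bone marrow-derived macrophages. The members were taken by gene symbol in the platform annotation, and every probe of each gene was kept, which gave 15 probes for 10 genes among the 19057 genes and 45281 probes of the array. The 4 groups had 3 arrays each, and all of them came from C57BL/6 bone marrow of mice aged 9 to 16 weeks, differentiated for 8 to 9 days in 20% L929-conditioned medium. Cyclodextrin + LPS cells were held for 4 h in 4% cyclodextrin, washed, and given LPS at 10 ng/ml for 6 h. HDL + LPS cells were held for 24 h in HDL at 300 ug/ml (written nHDL in the labels, with the n not spelled out), washed, and given the same LPS. PBS + LPS cells had PBS in place of either compound, and PBS cells without LPS had PBS alone. No contact time is given for PBS, so compound, contact time and handling cannot be told apart in the comparisons with PBS + LPS. Those comparisons share the 3 PBS + LPS arrays.

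Toll-like receptors are membrane proteins that bind parts of microbes and start inflammatory gene expression through NF-kB and interferon regulatory factors. TLR1, TLR2, TLR4 and TLR6 sit at the cell surface and bind lipids and lipoproteins of bacteria, whereas TLR3, TLR7, TLR8 and TLR9 sit in endosomes and bind nucleic acids. CD14 hands LPS to TLR4 and its partner Ly96, and MyD88 carries the signal of every receptor named here other than TLR3, which uses Ticam1. HDL and cyclodextrin both take cholesterol out of cell membranes, where these surface receptors gather in cholesterol-rich domains.

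Signals are given as normalized log2 values, on which a difference of 1 is a doubling, and a probe counts as detected on an array when its detection p is under 0.05. The share of detected probes was 34.3 ± 0.95% on the cyclodextrin + LPS arrays, 36.0 ± 0.2% on the HDL + LPS arrays, 36.7 ± 0.252% on the PBS + LPS arrays and 37.2 ± 1.27% on the PBS arrays without LPS (SD, n = 3 each). Across probes, arrays of the same group correlated at r = 0.988 to 0.995, LPS arrays from 2 groups at 0.983 to 0.993, and pairs of an LPS array and an array without LPS at 0.868 to 0.893. Of the macrophage markers, all 5 with a probe were detected on all 12 arrays. In the LPS response 3 of them were called higher, among them the Fc receptor Fcgr1 (log2 fold change 3.32). None of 4 T cell markers passed the detection filter, 1 of 2 B cell markers with a probe did, 4 of 6 neutrophil markers did, 2 of 4 dendritic cell markers, 1 of 4 fibroblast markers and 1 of 4 mast cell and basophil markers. In the LPS response the neutrophil marker S100a8 was higher (0.65) and Ltf at least 1.49-fold lower, with Elane and Mpo not passing. The other tested neutrophil markers, S100a9 (0.15, adjusted p = 0.633) and Ngp (-0.15, adjusted p = 0.525), were not called, and Ngp was detected on 4 of 12 arrays. Ltf passed the filter only through the arrays without LPS. Of the dendritic cell markers, Itgax was called higher by 1 of its 2 probes (0.63, the other probe 0.04), Siglech was not called (0.33, adjusted p = 0.0798), and Flt3 and Zbtb46 did not pass the filter. Without LPS, the brighter Itgax probe was detected on 2 of 3 arrays and Siglech on 1 of 3. Their folds are therefore lower bounds, 1.5 for Itgax and 1.13 for Siglech. The fibroblast marker Dcn averaged 5.74 in PBS + LPS cells and 4.70 in PBS cells without LPS, with Col1a1, Col1a2 and Col3a1 not passing. Dcn passed the filter only through the PBS + LPS and HDL + LPS arrays. The part of such cells in the results was not tested. In bulk RNA, fewer cells of a type and less RNA per cell cannot be told apart.

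Of the 15 probes, 12 passed the detection filter (detected on at least 3 of 12 arrays), and they stand for 9 of the 10 genes. Both probes of Tlr9, the receptor for unmethylated CpG DNA, and 1 of the 3 Tlr4 probes (ILMN_2690004) were detected on 0 of 12 arrays. Their detection p-values lay between 0.118 and 0.937 and their linear signals between 52.4 and 81.8, in every group. Tlr9 RNA was thus not detectable with these probes, and they set no level for it. The Tlr3 probe was detected on all 9 LPS arrays and on 0 of 3 arrays without LPS, so it passed the filter only through the LPS groups. The other 11 probes were detected on all 12 arrays.

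LPS raised most of these receptors in PBS cells. Compared with PBS cells without LPS, 10 of the 12 probes, for 8 of the 9 genes, were higher at an adjusted p under 0.05 in limma (Benjamini-Hochberg adjustment over 18364 probes), and 0 were lower. Among all tested probes, 56% were called in this comparison, 22.8% higher and 33.2% lower. The members' median log2 fold change was 1.65, against -0.09 over all tested probes. Because Tlr3 could only pass by being high with LPS, the count among the probes detected on all 12 arrays is given too, and it was 9 of 11. On each of the 10 called probes, all 9 LPS arrays, whatever the pre-incubation, lay above the 3 arrays without LPS. These probes had already been called higher, and the share of all tested probes with this split was not computed. Between the PBS groups alone, the arrays did not overlap for 10 of 12 member probes, all higher, against 62.2% of all tested probes in either direction.

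**Figure D1:**
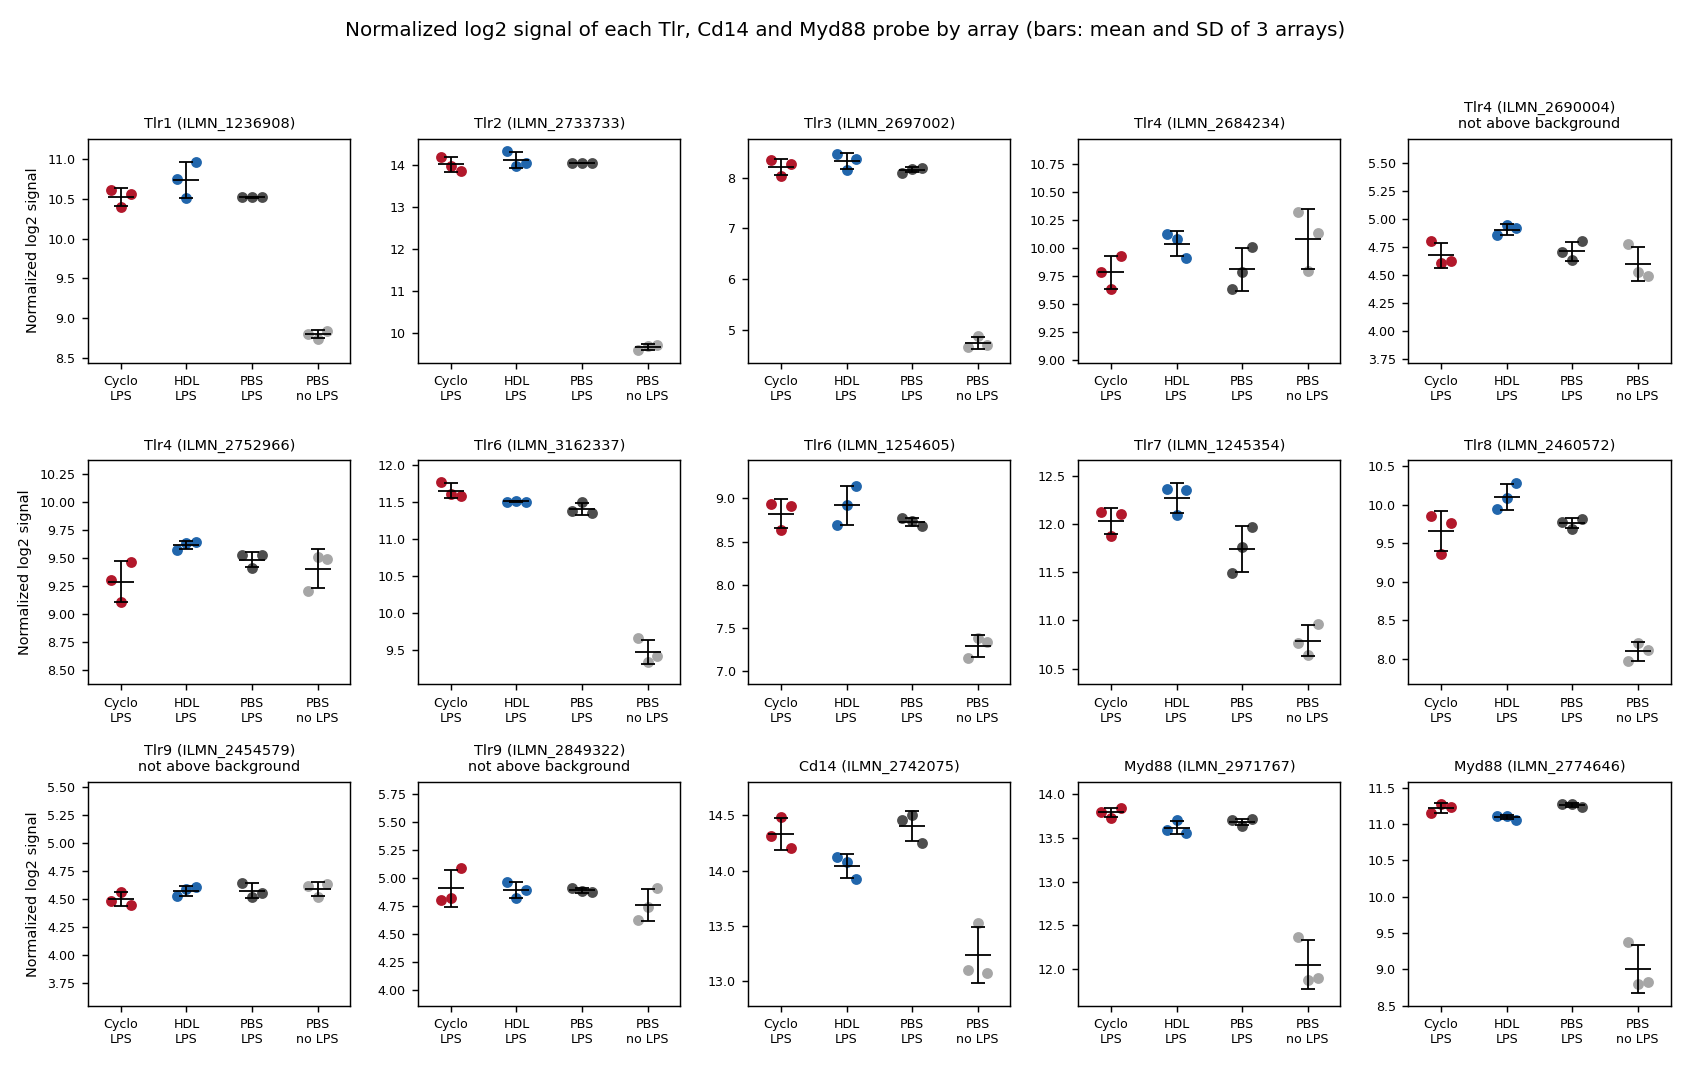
Normalized log2 signal of each of the 15 probes (1 panel a probe, with its own y axis) on the 12 arrays, by group. Points are arrays, and bars are the mean and SD of 3 arrays. In 10 panels the 3 arrays without LPS lie below all 9 LPS arrays, while in the panels of Tlr4 and Tlr9 the groups lie close together.

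Among the lipopeptide receptors of the cell surface, Tlr2 changed most. TLR2 binds bacterial lipopeptides in pairs with TLR1 or TLR6. Tlr2 (ILMN_2733733) stood at 14.04, 14.04 and 14.03 on the PBS + LPS arrays, against 9.60, 9.70 and 9.71 on the PBS arrays without LPS. The groups were far apart, with a log2 fold change of 4.37 ± 0.12 (SE) and an adjusted p of 5.69e-13, a 20.7-fold difference. Its partners moved less. Tlr1 (ILMN_1236908) stood at 10.52, 10.52 and 10.53 with LPS, against 8.80, 8.74 and 8.84 without, which is a log2 fold change of 1.73 ± 0.12 (adjusted p = 1.72e-08). The brighter Tlr6 probe (ILMN_3162337) stood at 11.39, 11.50 and 11.35 with LPS, against 9.66, 9.34 and 9.42 without. Its log2 fold change was 1.94 ± 0.11 (adjusted p = 1.98e-09), and the second Tlr6 probe (ILMN_1254605) gave 1.44 ± 0.13 (3.25e-07). The groups did not overlap on any of these probes. Tlr1 and Tlr6 lie next to each other on chromosome 5 in the RefSeq gene order.

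Tlr4, the LPS receptor itself, did not pass the test, and its co-receptor Cd14 rose. Tlr4 gave 9.63, 9.78 and 10.01 on the PBS + LPS arrays, against 10.32, 9.79 and 10.13 on the PBS arrays without LPS, with its brighter probe (ILMN_2684234). The ranges overlapped, and the log2 fold change of -0.27 ± 0.15 did not pass (adjusted p = 0.14, 95% interval -0.59 to 0.05). It was called lower in 3 of 22 alternative settings, with median scaling (-0.54, adjusted p = 0.00886), with array weights (-0.28, 0.0447) and without PBS no-LPS replicate 2 (-0.42, 0.0284). The other detected probe (ILMN_2752966) gave 0.08 ± 0.12 (adjusted p = 0.605, 95% interval -0.18 to 0.35) and turned to -0.25 with median scaling. Both intervals end far below the changes of Tlr2 and Tlr3. Cd14 (ILMN_2742075) stood at 14.46, 14.50 and 14.25 on the PBS + LPS arrays, against 13.10, 13.53 and 13.08 on the PBS arrays without LPS, where this probe was already bright. The groups did not overlap, and the log2 fold change was 1.16 ± 0.14 (adjusted p = 5.03e-06).

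Among the endosomal receptors Tlr3, which binds duplex RNA, changed most. Tlr3 (ILMN_2697002) stood at 8.10, 8.18 and 8.19 on the PBS + LPS arrays, against 4.66, 4.88 and 4.71 on the PBS arrays without LPS, where it was not above background. Its change is therefore a lower bound of at least 7.55-fold (adjusted p = 8.28e-12), set against the lowest signal of a detected probe on each array. Tlr8 (ILMN_2460572), a receptor for RNA fragments in human cells, stood at 9.78, 9.69 and 9.82 with LPS, against 7.97, 8.21 and 8.11 without. These groups were also clear of each other, at a log2 fold change of 1.67 ± 0.14 (adjusted p = 1.08e-07). Tlr7 (ILMN_1245354), a receptor for uridine-rich RNA, had the smallest called change. It stood at 11.49, 11.76 and 11.97 with LPS, against 10.77, 10.64 and 10.96 without, and the log2 fold change was 0.95 ± 0.14 (adjusted p = 5.13e-05). The genes of Tlr7 and Tlr8 are neighbours on chromosome X.

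The adaptor gene Myd88 was higher with both of its probes. The brighter one (ILMN_2971767) stood at 13.70, 13.64 and 13.71 on the PBS + LPS arrays, against 12.37, 11.88 and 11.90 on the PBS arrays without LPS. Its log2 fold change was 1.64 ± 0.13 (adjusted p = 5.94e-08). The dimmer one (ILMN_2774646) stood at 11.28, 11.28 and 11.23, against 9.38, 8.80 and 8.83, and gave 2.26 ± 0.14 (3.47e-09). Without LPS, replicate 1 was the highest array on both probes, yet it lay below every LPS array.

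The sequence before the gene start was searched for the letters of known binding motifs. RefSeq windows of 260 bases (250 before the gene start and 10 after it, GRCm38.p6) were found for 7 of the 10 genes, in 9 windows, and Tlr4, Tlr7 and Cd14 had none. The 4 windows that held an NF-kB or interferon response match, those of Tlr2, Tlr3 and Myd88 and 1 of the 2 windows of Tlr6, were picked after the matches were seen, to show where they lie. They are printed 5′ to 3′ on the strand of the gene. Capitals mark matches to the NF-kB motif in Tlr2 and Tlr3, and matches to a pair of interferon response half-sites (GAAA, a pair of any bases, GAAA) in Tlr6 and Myd88.
Tlr2 (chr3:83841599-83841858, minus strand): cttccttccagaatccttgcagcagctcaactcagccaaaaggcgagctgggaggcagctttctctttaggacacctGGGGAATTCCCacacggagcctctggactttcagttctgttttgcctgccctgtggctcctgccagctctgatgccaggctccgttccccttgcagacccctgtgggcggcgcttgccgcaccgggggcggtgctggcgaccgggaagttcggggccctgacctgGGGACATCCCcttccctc
Tlr3 (chr8:45410371-45410630, minus strand): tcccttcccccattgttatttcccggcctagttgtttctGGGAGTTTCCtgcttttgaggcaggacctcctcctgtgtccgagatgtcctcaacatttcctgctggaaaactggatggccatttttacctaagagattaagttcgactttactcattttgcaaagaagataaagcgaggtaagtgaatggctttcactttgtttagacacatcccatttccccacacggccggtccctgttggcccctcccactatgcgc
Tlr6 (chr5:64959157-64959416, minus strand): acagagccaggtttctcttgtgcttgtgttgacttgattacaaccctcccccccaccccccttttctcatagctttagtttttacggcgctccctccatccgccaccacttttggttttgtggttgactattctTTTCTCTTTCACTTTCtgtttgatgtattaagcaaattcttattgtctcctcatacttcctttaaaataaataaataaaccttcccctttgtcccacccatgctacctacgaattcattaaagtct
Myd88 (chr9:119340009-119340268, minus strand): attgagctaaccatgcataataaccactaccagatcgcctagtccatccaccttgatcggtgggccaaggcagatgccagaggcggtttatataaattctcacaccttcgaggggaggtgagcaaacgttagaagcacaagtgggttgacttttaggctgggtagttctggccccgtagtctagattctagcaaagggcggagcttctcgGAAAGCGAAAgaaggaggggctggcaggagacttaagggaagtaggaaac

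Both strands were searched. In Tlr2 the NF-kB motif matched in an overlapping pair starting 173 and 172 bases before the gene start and again 8 bases before it, and in Tlr3 it matched 211 bases before. The half-site pair matched on the opposite strand in Tlr6, in an overlapping pair starting 116 and 110 bases before the gene start, and on the gene's strand in Myd88, 40 bases before. Of 32851 RefSeq windows of this length, 4.02% held the NF-kB motif and 3.07% the half-site pair. The AP-1 motif TGANTCA, present in 7.03% of windows, matched in Tlr9 alone among the 9, and the PU.1 motif GAGGAA, present in 24.1%, matched in Tlr1, Tlr8 and Tlr9. The matches are descriptions of letters in these windows.

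**Figure D2:**
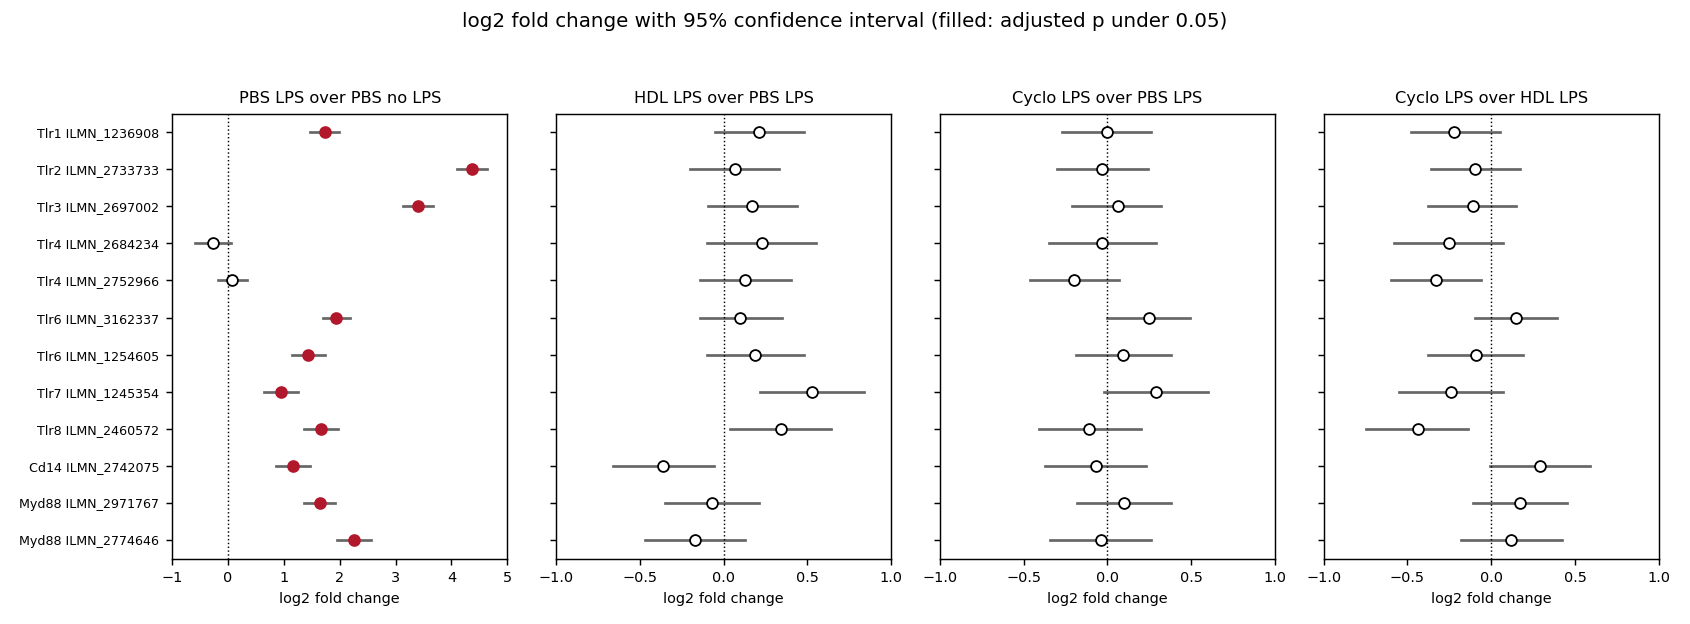
Log2 fold change (x axis) of the 12 detected probes (y axis) in the 4 comparisons, with 95% confidence intervals. Filled points have an adjusted p under 0.05. The first panel has an axis of its own. It holds 10 filled points, from Tlr7 at 0.95 to Tlr2 at 4.37, with Tlr3 at its fitted value where the text gives a bound, and the other panels hold only open points.

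No receptor gene passed the test between HDL + LPS and PBS + LPS cells, and the differences of largest size were in Tlr7, Cd14 and Tlr8. Of the 12 probes, 0 were called by limma in HDL + LPS against PBS + LPS cells (adjusted p from 0.102 to 0.846), and 3 had an unadjusted p under 0.05. Among all tested probes 0.86% were called, 0.359% higher and 0.501% lower, and 15.8% had an unadjusted p under 0.05. With array weights 0 of the 12 were called as well. The groups did not overlap for 6 of the 12 probes, 4 higher and 2 lower, against 24% of all tested probes. The probes share arrays, and Tlr6, Tlr4 and Myd88 have more than 1 probe, so they are not independent.

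Tlr7 stood at 12.36, 12.09 and 12.35 on the HDL + LPS arrays, against 11.49, 11.76 and 11.97 on the PBS + LPS arrays. Every HDL array lay above every PBS + LPS array. The log2 fold change was 0.53 ± 0.14 (adjusted p = 0.102, 95% interval 0.22 to 0.84). It was called with the authors' processed values and without background correction (0.52, adjusted p = 0.0414 each). These 2 settings gave nearly the same results, with 329 of all probes called under HDL in each, so they are not separate checks. Over 22 alternatives the adjusted p of Tlr7 ran from 0.0414 to 0.331. Tlr8 stood at 9.94, 10.09 and 10.28 with HDL, against 9.78, 9.69 and 9.82 with PBS. Again the groups did not overlap, at 0.34 ± 0.14 (adjusted p = 0.251). Cd14 went the other way, with 14.12, 14.08 and 13.92 in HDL + LPS cells, against 14.46, 14.50 and 14.25 in PBS + LPS cells. Every HDL array lay below every PBS + LPS array, and the log2 fold change was -0.36 ± 0.14 (adjusted p = 0.223, 95% interval -0.66 to -0.06). Neither Tlr8 nor Cd14 was called in any of 22 alternatives.

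Tlr2, Tlr3 and Tlr1, all higher with LPS, did not pass under HDL. Tlr2 stood at 14.32, 13.96 and 14.03 in HDL + LPS cells, which spans the 3 PBS + LPS arrays (log2 fold change 0.07 ± 0.12, adjusted p = 0.84, 95% interval -0.20 to 0.33). Tlr3 gave 0.17 ± 0.12 (adjusted p = 0.523) and Tlr1 0.21 ± 0.12 (0.415). The 2 detected Tlr4 probes gave 0.23 ± 0.15 and 0.13 ± 0.12, the Tlr6 probes 0.10 ± 0.11 and 0.19 ± 0.13, and the Myd88 probes -0.07 ± 0.13 and -0.17 ± 0.14. None of these passed. Over the 12 probes the 95% intervals, not adjusted for the number of probes tested, reached at most 0.32 to either side of the estimate. HDL had the highest mean of the 3 LPS groups on 8 of the 12 probes, which are those of Tlr1, Tlr2, Tlr3, Tlr4, Tlr7 and Tlr8 and 1 of the 2 Tlr6 probes. None of the 8 was called against PBS + LPS in the main model. The share of all tested probes with HDL highest was not computed, so this count shows no general rise with HDL.

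Cyclodextrin + LPS cells gave no called member against PBS + LPS cells either. Of the 12 probes, 0 were called by limma (adjusted p from 0.269 to 0.998), 1 had an unadjusted p under 0.05, and 0 were called in any of 22 alternatives, array weights included. Among all tested probes 3.97% were called, 1.86% higher and 2.11% lower, and 18.1% had an unadjusted p under 0.05. The groups did not overlap for 2 of the 12 probes, both higher, against 24.9% of all tested probes. The log2 fold changes ran from -0.20 to 0.29, with a median of -0.01, the median of all probes being -0.01 too. The share of detected probes was lower on every cyclodextrin array (33.3 to 35.2%) than on every PBS + LPS array (36.4 to 36.9%), and its part in these values was not tested. Dcn averaged 4.97 in cyclodextrin + LPS cells, below background, and 5.74 in PBS + LPS cells. It was called at least 1.24-fold lower (adjusted p = 0.0165). Dcn passed the filter only through the PBS + LPS and HDL + LPS arrays, so with cyclodextrin it could only be the lower one.

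Tlr6 was highest with cyclodextrin by its brighter probe. It stood at 11.77, 11.62 and 11.59 in cyclodextrin + LPS cells, against 11.39, 11.50 and 11.35 in PBS + LPS cells. The groups did not overlap, and the log2 fold change was 0.25 ± 0.11 (adjusted p = 0.269), while the second probe gave 0.09 ± 0.13 (0.774). Tlr7 stood at 12.12, 11.88 and 12.10 with cyclodextrin, which overlaps the PBS + LPS arrays, and gave 0.29 ± 0.14 (adjusted p = 0.308, 95% interval -0.02 to 0.60). Tlr2 stood at 14.19, 13.97 and 13.86 and gave -0.03 ± 0.12 (adjusted p = 0.933). Cd14 stood at 14.31, 14.48 and 14.20 and gave -0.07 ± 0.14 (0.844). Both spanned or overlapped the PBS + LPS arrays. The 2 Tlr4 probes gave -0.03 ± 0.15 and -0.20 ± 0.12, Tlr3 0.06 ± 0.12, Tlr1 0.00 ± 0.12 and Tlr8 -0.11 ± 0.14. The brighter Myd88 probe was the other one without overlap, at 13.80, 13.73 and 13.84 with cyclodextrin against 13.70, 13.64 and 13.71 with PBS, a log2 fold change of 0.10 ± 0.13 (adjusted p = 0.742).

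Cyclodextrin and HDL were also compared with each other, at different contact times. Of the 12 probes, 0 were called by limma (adjusted p from 0.12 to 0.775) and 2 had an unadjusted p under 0.05. Among all tested probes 1.84% were called, 0.811% higher and 1.03% lower, and 17.7% had an unadjusted p under 0.05. With array weights 0 were called, and with median scaling 2 were, Tlr8 and 1 Tlr4 probe. The groups did not overlap for 6 of the 12 probes, 4 higher with cyclodextrin and 2 lower, against 22.8% of all tested probes. Tlr8 stood at 9.85, 9.36 and 9.77 in cyclodextrin + LPS cells, against 9.94, 10.09 and 10.28 in HDL + LPS cells, with a log2 fold change of -0.44 ± 0.14 (adjusted p = 0.12, and 0.0274 with median scaling). Every HDL array was the higher one. The dimmer Tlr4 probe (ILMN_2752966) stood at 9.30, 9.10 and 9.46 with cyclodextrin, against 9.57, 9.63 and 9.64 with HDL, and gave -0.33 ± 0.12 (0.185, and 0.0467 with median scaling), while the brighter one gave -0.25 ± 0.15 (0.415). Cd14 was placed the opposite way, with every cyclodextrin array above every HDL array, at 0.29 ± 0.14 (adjusted p = 0.303). The fibroblast marker Dcn was called at least 1.27-fold lower with cyclodextrin (mean 4.97, below background) than with HDL (5.78, adjusted p = 0.0214). By the filter it could only be the lower one with cyclodextrin, and its part in these values was not tested. The non-overlapping probes with cyclodextrin above HDL were those of Cd14 and Myd88 and the brighter Tlr6 probe.

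By level, each gene called in the LPS response was lowest in PBS cells without LPS. Above it the order of the 3 LPS groups differed from gene to gene, and no neighbouring pair of LPS groups passed the test on any of the 12 probes. Tlr2 and Tlr8 ran from cyclodextrin through PBS to HDL, and Tlr3 and Tlr7 from PBS through cyclodextrin to HDL. Cd14 ran from HDL through cyclodextrin to PBS. For Tlr1, cyclodextrin and PBS had the same mean (10.52), below HDL (10.74). The 2 probes of Tlr6 gave different orders, with cyclodextrin highest on the brighter probe and HDL on the other. Those of Myd88 differed too, with cyclodextrin highest on the brighter probe and PBS on the dimmer one. For Tlr4, the brighter probe had its lowest mean in cyclodextrin + LPS cells and its highest in PBS cells without LPS (9.78 ± 0.15 and 10.08 ± 0.27, SD, n = 3 each). The other detected Tlr4 probe was also lowest in cyclodextrin + LPS cells (9.29 ± 0.18), but highest in HDL + LPS cells (9.61 ± 0.04). On that probe PBS cells without LPS (9.40 ± 0.18) lay below PBS + LPS cells (9.48 ± 0.06).

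The other genes of Toll-like receptor signalling were read in the LPS response by the brightest probe of each gene. Among adaptors and accessory proteins, 6 of 10 tested genes were called higher and 1 lower (median log2 fold change 0.44). Ly86 and Cd180, which form a receptor complex related to Ly96 and TLR4, rose by 1.00 ± 0.13 and 0.97 ± 0.12, and Ticam1, the adaptor of TLR3, by 0.99 ± 0.23, though its other probe did not pass (0.40). Cnpy3, a chaperone of Toll-like receptors, fell (-0.93 ± 0.17). Of the 12 tested kinases and ligases that act after the receptor, 7 were higher and 2 lower (median 0.64). Peli1, a ubiquitin ligase, rose by 3.40 ± 0.15, the kinase gene Ikbke by 2.39 ± 0.13, Irak2, a kinase that binds MyD88 complexes, by 2.17 ± 0.11, and Tab2, an adaptor of the kinase Map3k7, by 1.17 ± 0.12. All 4 were called.

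Several inhibitors of the pathway and several pattern receptors of other families were higher with LPS. Of 6 tested inhibitors 4 were higher and 2 lower (median 1.06). Tnfaip3, which edits ubiquitin chains, rose by 3.37 ± 0.14, Trafd1 by 2.61 ± 0.12 and Irak3, an Irak that lacks strong kinase activity, by 1.54 ± 0.16. Sigirr, a receptor that dampens Toll-like receptor signals, was at least 1.79-fold lower, and it was detected on 0 of 3 PBS + LPS arrays. It was detected only on arrays without LPS, so it could only pass the filter by being lower with LPS. Of 9 tested pattern receptors of other families 6 were higher and 1 lower (median 3.36). Among the higher ones, Ifih1 and Nod2 were detected on 0 of 3 arrays without LPS. They could only pass the filter by being high with LPS. The C-type lectin gene Clec4e rose by 5.25 ± 0.12, the RNA sensor genes Ddx58 by 4.27 ± 0.14 and Ifih1 by at least 11.2-fold, and Nod1, a sensor of peptidoglycan fragments, by 3.86 ± 0.18. The dimmer Ddx58 probes gave 3.09 and 1.77. These lists were read as counts beside the 22.8% of all tested probes called higher and 33.2% called lower, with no test of the lists. The lists count 1 probe a gene, whereas these shares count every probe. With 1 probe a gene, 5932 of 9795 genes were called, in either direction. Their medians and that of the members were the same with genes not detected on every array of a group set to a lower bound of their change.

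**Figure D3:**
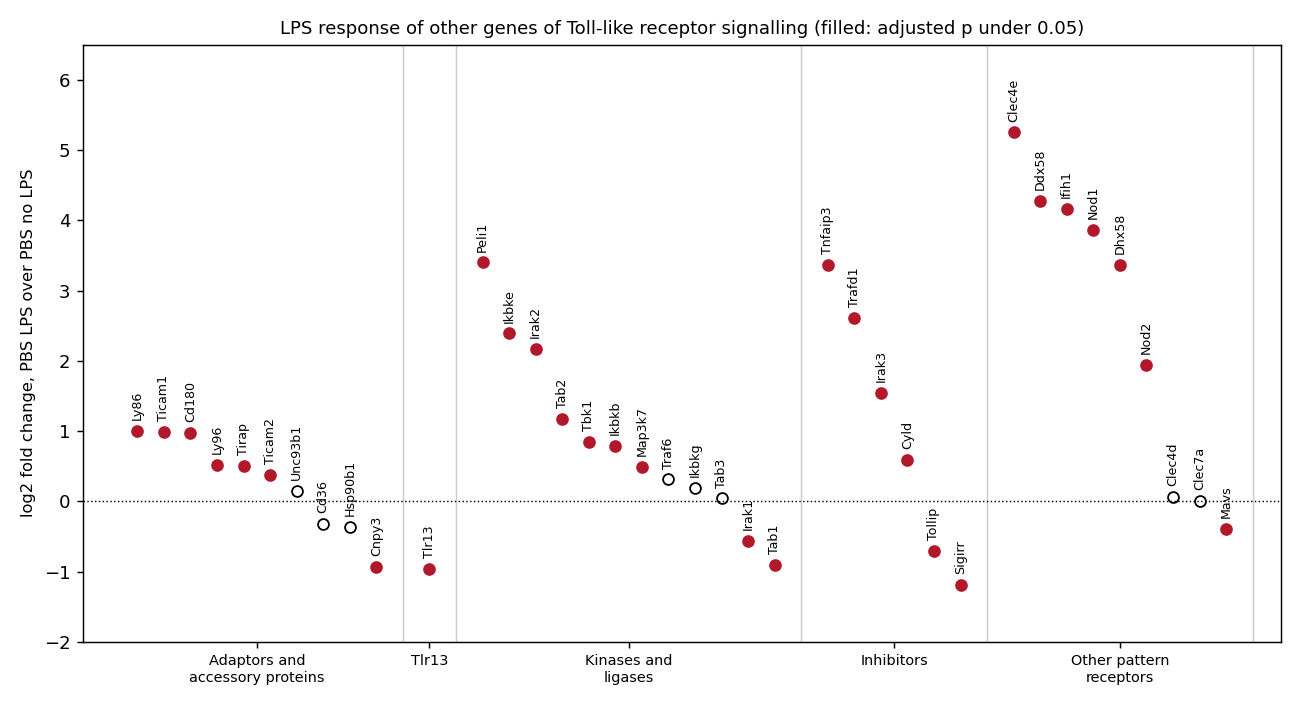
Log2 fold change in PBS + LPS over PBS cells without LPS (y axis) for the tested genes of 5 lists around the Toll-like receptors (x axis, by list and in falling order). Filled points have an adjusted p under 0.05. Points run from Clec4e at 5.25 to Sigirr, and the fitted values of Ifih1 and Sigirr stand where the text gives bounds.

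Under HDL and under cyclodextrin, 0 genes of these lists were called by limma at their brightest probe. At an unadjusted p under 0.05 there were 1 adaptor, 1 receptor, 1 kinase or ligase and 1 inhibitor under HDL, and 1 kinase or ligase and 3 pattern receptors under cyclodextrin. Among the dimmer probes of these genes, 2 were called higher under cyclodextrin. A probe of the RNA sensor gene Ddx58 (ILMN_1251358) gave 0.59 (adjusted p = 0.0102), while its brightest probe gave -0.08, and a probe of the kinase complex gene Ikbkg (ILMN_2630423) gave 0.58 (adjusted p = 0.0348), while its brightest probe gave 0.25. The same Ddx58 probe was higher with cyclodextrin than with HDL (0.53, adjusted p = 0.0286), and its brightest probe gave -0.18 there. Tlr13, a receptor for bacterial ribosomal RNA in mice, was the single tested Toll-like receptor outside the members, since Tlr5, Tlr11 and Tlr12 did not pass the filter. It fell with LPS, where the members' called probes rose. Its brighter probe (ILMN_2735961) stood at 10.73, 10.78 and 10.80 in PBS + LPS cells, against 11.55, 11.86 and 11.77 in PBS cells without LPS, with a log2 fold change of -0.96 ± 0.13 (adjusted p = 1.45e-05). It was also lower in cyclodextrin + LPS cells, at 10.79, 10.45 and 10.62, against 11.30, 11.19 and 11.49 in HDL + LPS cells (-0.71 ± 0.13, adjusted p = 0.0137). Against PBS + LPS cells, HDL + LPS cells gave 0.56 ± 0.13 (adjusted p = 0.0594, called in 8 of 22 alternatives) by this probe and 0.04 ± 0.12 (adjusted p = 0.918) by the second. The difference between cyclodextrin and HDL was called in 19 of 22 alternatives and lost its call without HDL replicate 18 (-0.62, 0.0596), without cyclodextrin replicate 23 (-0.62, 0.059) and with only the 2 groups in the model (0.0767). The second Tlr13 probe (ILMN_2894587) was called lower with LPS (-0.63 ± 0.12) but not between cyclodextrin and HDL (-0.27 ± 0.12, adjusted p = 0.272).

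Genes whose pattern was most like a member were sought by the distance between their log2 fold changes in the LPS response, under HDL and under cyclodextrin, among 9786 genes. Each gene was read by its brightest probe. The pair nearest to Tlr2 was Gcnt2 (distance 0.10) and Ddx58 (0.11). The dimmer Ddx58 probes gave 3.09 and 1.77 in the LPS response, against 4.27 for its brightest, so this likeness holds for that probe only. For Tlr6, among genes detected without LPS, Il10ra was nearest (0.07). None is named for Tlr3, which was not above background without LPS, so that its LPS response is only a bound. The distances rest on the same 12 arrays and on shared PBS + LPS arrays, and they describe likeness of pattern alone.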

How the data were processed

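RNA of 12 samples was measured on Illumina bead arrays, and groups and replicate numbers came from the sample titles. Per the submitters' processing notes, the authors used GenomeStudio. They deposited a probe signal table, called non-normalized, and, per the file headers, a detection p-value for each signal. A second deposited table holds processed values, of a normalization not given in the sources used here. In both deposited tables most values, which were not on an intensity scale as stored, had lost their decimal mark. Of 543372 signals 2.02% kept it. It was set from the detection p-value for 75.5%, from the number of digits for 1.57%, from the curve of processed value against signal on the same array for 20.5%, and from other arrays for 0.378%. Of 5133 known values hidden as a check, 87 were left unplaced and 0 were placed wrong, but the rule was tuned on this check. Of the members' 180 values, 89 rest on the curve and 1 on other arrays. The planned test assumed intact intensities and was run on the rebuilt ones.

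Signals were corrected and quantile normalized with neqc (limma 3.58.1, R 4.3.3, offset 16, with negative controls inferred from the detection p-values) and put on the log2 scale. Probes with a detection p under 0.05 on at least 3 of 12 arrays were kept, 18364 of 45281. A limma model (lmFit, eBayes, two-sided) with 4 group means over all 12 arrays had 8 residual and 6.2 prior degrees of freedom. P-values were adjusted by Benjamini-Hochberg over the kept probes, and a probe was called at an adjusted p under 0.05. The test was checked on simulated data, with 50 of 18364 probes changed at each size of change in each comparison. Of probes raised there by a log2 change of 0.5, 26% were called in the LPS response and 32% under HDL. Under cyclodextrin 28% were called, and 38% between cyclodextrin and HDL. Of probes raised by 1, 82 to 88% were called, and of those lowered by 1, 76 to 90%. Of probes raised by 2, 100% were called in each comparison. In the real LPS response 56% of tested probes were called, far more than were changed in the simulation. The simulated shares therefore do not give the share recovered in that comparison. Symbols came from the platform annotation, where 34885 probes had 1 symbol, 18 several and 10378 none listed. Where the dimmer of the groups compared was not detected on all of its arrays, a fold is a lower bound. From each list the 4 genes with the largest called LPS response were named, with any gene called under HDL or cyclodextrin. The genes nearest in pattern were to be named for the 3 members with the largest fitted LPS response, and those not above background without LPS, Tlr3 included, were left out after their values were seen. The 22 alternatives covered scaling, background, offset, filter, probe choice, weights, the groups fitted, the processed values and each array left out. A change of sign between uncalled values was not counted as a reversal. Members, lists and tests were chosen with earlier results of these data known. No label says that replicates were separate cultures or animals, so the p-values measure only spread among these samples, possibly technical, and the number of arrays limits the precision. Python 3.11.15 was used for the decimal marks and sequences.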

Additional observations from a re-analysis of the deposited data

How the results depend on the processing

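Over 22 alternatives for the members (12 of them leaving out 1 array), 1033 of 1040 probe results kept their direction or stayed uncalled and kept their side of the threshold, and 0 called values changed sign. The 7 exceptions passed only under an alternative, and their causes were not tested. Under HDL 1 member probe (Tlr7) was called without background correction and the same 1 with the authors' processed values, against 0. These 2 settings gave nearly the same results and are not separate checks. Between cyclodextrin and HDL 2 were called with median scaling, against 0. The remaining 3 are the Tlr4 results given with the LPS response. Leaving out 1 array gave 10 to 11 called member probes in the LPS response and 0 to 0 in the other 3 comparisons. The counts over all probes moved more. Called probes under HDL numbered 158, and 39 to 199 without 1 array (PBS + LPS replicates 7, 8 and 9 gave 43, 39 and 90, HDL replicates 16, 17 and 18 gave 70, 103 and 68), 47 with only the groups compared, 99 without the filter, 274 with an offset of 50, 329 without background correction or with the processed values, and 568 with array weights. Under cyclodextrin 729 were called, 284, 324 and 423 without PBS + LPS replicates 7, 8 and 9, 444 and 344 without cyclodextrin replicates 22 and 24, and 1241 with array weights. Between cyclodextrin and HDL 338 were called, 144 and 176 without cyclodextrin replicates 23 and 24, 177 and 120 without HDL replicates 16 and 18, 60 with only the groups compared, and 1076 with median scaling. In the LPS response 10276 were called, and 5932 with 1 probe a gene. Median scaling moved the median of all probes to -0.37 in the LPS response (-0.09 otherwise), -0.11 under cyclodextrin (-0.01) and -0.14 between cyclodextrin and HDL (0.00). The split of calls became 2873 higher and 9113 lower in the LPS response (4186 and 6090 otherwise), 73 and 61 under HDL (66 and 92), 134 and 699 under cyclodextrin (342 and 387), and 81 and 995 between cyclodextrin and HDL (149 and 189). A beadchip block was not run because no chip is named. No paired analysis was possible because the groups share no replicate number. Signal over background limits Tlr9 and, without LPS, Tlr3.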
